A study of Mus musculus with 12 samples.

Results

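10 genes that mark inhibitory neurons of the mouse forebrain were followed through 12 RNA-seq libraries of mouse brain. They are Gad1, Gad2, Pvalb, Sst, Vip, Npy, Cck, Calb2, Reln and Lhx6, taken by symbol from a table of 43629 gene IDs, and all 10 of them were found, had reads in every library and passed the filter on low counts that left 19145 genes. The mice received a recombinant adeno-associated virus (rAAV) that encodes collagen domain constructs, or phosphate-buffered saline (PBS), by injection into the cerebral ventricles as newborns, and brain tissue was taken at 3 months of age. There were 3 libraries each of collagen domain male, collagen domain female, PBS male and PBS female mice, each group named as labelled. The labels give no strain, no promoter for the construct and no group with a vector that lacks it, so virus and construct cannot be told apart. They also do not say whether replicates are separate mice, so each p-value measures only the spread between these libraries. The protocol names frozen, pulverised forebrain, while the tissue field says brain.

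GABAergic interneurons are local inhibitory cells that release GABA, which is made from glutamate by the decarboxylases GAD67 and GAD65, the products of Gad1 and Gad2. In the cortex and hippocampus they arise mostly from the medial and caudal ganglionic eminences, and their classes are told apart by calcium-binding proteins and neuropeptides. Pvalb marks fast-spiking basket and chandelier cells, Sst marks dendrite-targeting cells, and Vip marks cells that inhibit other interneurons. Few of these genes are restricted to interneurons of the forebrain: parvalbumin is also made by Purkinje cells and molecular layer interneurons of the cerebellum, calretinin (Calb2) and reelin by cerebellar granule cells, cholecystokinin by many cortical pyramidal cells, and Gad1 and Gad2 by striatal projection neurons.

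The 12 libraries held 39272127 to 52323985 reads, with 24489 to 25284 genes detected and 7.37 to 9.86% of reads from mitochondrially encoded genes. Reads at C1qtnf3, the gene whose collagen domain the series title names, split the libraries into 6 with 1071 to 4966 reads and 6 with 8 to 28 reads. This split went against the treatment label in 4 libraries, those labelled collagen domain female 1, collagen domain female 3, PBS male 1 and PBS female 2. Xist and Ddx3y went against the sex label in 4, those labelled collagen domain male 3, collagen domain female 1, PBS male 1 and PBS female 2, so that 5 libraries went against at least 1 label. Transcripts of a list of cerebellum and hindbrain genes, which holds none of the 10, were above their 12-library mean in 5 libraries, those labelled collagen domain male 2, collagen domain female 2, PBS male 3, PBS female 2 and PBS female 3. The summed level of the 17 measured genes of that list was 449 to 995 CPM (counts scaled to a common library size, here by TMM) in these 5 libraries and 34.7 to 54.7 CPM in the other 7, and 9 of the genes were at 0 in at least 1 of the 7. Below, groups and libraries are named as labelled, and the treatment differences are also given without the libraries in doubt.

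Levels of different genes were compared per kilobase of annotated exon. On this scale Sst averaged 157 ± 19.3 CPM per kb (SD, n = 12 libraries), Cck 119 ± 21.9, Pvalb 92.3 ± 52.5, Gad1 68.6 ± 4.20, Npy 66.7 ± 11.02, Calb2 57.6 ± 8.71 and Gad2 49.3 ± 2.46 CPM per kb. Vip followed at 10.1 ± 2.48 CPM per kb, and Reln and Lhx6 came last at 3.03 ± 0.465 and 2.82 ± 0.362 CPM per kb. The neuropeptide transcripts Sst and Cck thus stood at the top, and the transcription factor and the large secreted protein at the bottom. Of neighbours in this order, only Gad2 and Vip, and Vip and Reln, had 12-library ranges that did not overlap, with Gad2 at 46.2 to 54.5, Vip at 6.49 to 15.2 and Reln at 2.38 to 3.99 CPM per kb. The exon lengths ran from 566 bases for Npy to 23738 bases for Reln and pool all annotated isoforms, so levels per kb depend on the annotation.

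Sequence next to the transcription start is shown for 4 members: Pvalb and Cck, a member higher and a member lower in the libraries rich in cerebellum and hindbrain transcripts, and Sst and Vip, the neuropeptide genes whose response to cyclic AMP is classically tied to their promoters. Windows of 150 bases immediately upstream of the RefSeq start (GRCm38.p6) are given 5′ to 3′ on the gene's strand. The Pvalb window is chr15:78206401-78206550 on the minus strand, the first of 2 listed starts. The Cck window is chr9:121495695-121495844 on the minus strand, the Sst window chr16:23890845-23890994 on the minus strand, and the Vip window chr10:5639068-5639217 on the plus strand. Capitals mark TATTTAA in Pvalb, the full cyclic AMP response element TGACGTCA in Sst, and its shorter core TGACG, read on either strand, in Vip and Cck.
Pvalb: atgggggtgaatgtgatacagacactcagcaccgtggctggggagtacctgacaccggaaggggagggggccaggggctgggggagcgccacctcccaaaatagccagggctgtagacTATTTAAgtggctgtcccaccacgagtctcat
Cck: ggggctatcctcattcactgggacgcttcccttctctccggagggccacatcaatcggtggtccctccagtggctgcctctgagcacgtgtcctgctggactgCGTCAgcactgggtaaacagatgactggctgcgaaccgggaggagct
Sst: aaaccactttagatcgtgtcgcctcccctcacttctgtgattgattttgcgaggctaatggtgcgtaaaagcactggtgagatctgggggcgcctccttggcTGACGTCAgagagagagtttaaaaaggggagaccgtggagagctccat
Vip: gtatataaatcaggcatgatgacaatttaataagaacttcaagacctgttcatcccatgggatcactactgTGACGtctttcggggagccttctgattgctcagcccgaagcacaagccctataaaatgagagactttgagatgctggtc

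RefSeq held such windows for 9 of the 10 members, Calb2 not among them. TGACGTCA was present in 1.36% of 32851 windows of this length on either strand, and among the members in Sst alone, 48 to 41 bases upstream. TGACG, which TGACGTCA contains, was present in 13.3% of windows and in Gad2, Sst, Vip and Cck. TATTTAA was present in 2.23% of windows and among the members in Pvalb alone, 32 to 26 bases upstream. These matches describe the letters and show no binding.

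The design compares collagen domain with PBS brains. None of the 10 interneuron genes passed the test of that difference: edgeR's quasi-likelihood test with sex as a covariate gave an adjusted p of 1 for every one, and it called 0 of 19145 genes, or 0%. At an unadjusted p under 0.05 it had 354 genes, none of them a member, while DESeq2 had 0 calls and 338 such genes and limma-voom had 0 calls and 349. C1qtnf3, whose reads went against the treatment label in 4 libraries, was not called either, at an edgeR log2 fold change of 2.03. A lack of calls by these labels thus does not show a lack of effect. Collagen domain and PBS ranges overlapped for all 10, and over all genes the ranges did not overlap for 13, or 0.0679%. In bulk tissue fewer cells of a type and less RNA per cell cannot be told apart, and this holds for every level given here.

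The GABA-synthesising enzymes were the steadiest. Gad1 (ENSMUSG00000070880) had 547, 511 and 518 CPM in collagen domain males and 534, 503 and 515 CPM in collagen domain females, against 523, 573 and 458 CPM in PBS males and 560.1, 555 and 493.4 CPM in PBS females. The collagen domain libraries lay inside the PBS range. The means were 522 ± 16.2 CPM with the collagen domain and 527 ± 44.6 CPM with PBS (SD, n = 6 each), a log2 fold change of −0.02 with an SE of 0.0602 and a 95% interval of −0.15 to 0.12. Gad2 (ENSMUSG00000026787), which makes the isoform bound to synaptic vesicles, had 271, 287 and 308 CPM as the lowest, median and highest of 6 collagen domain libraries, against 274, 289 and 320.1 CPM with PBS. Its log2 fold change was −0.02 with an interval of −0.13 to 0.09. The interval thus ran from 0.915-fold to 1.07-fold for Gad2 and from 0.904-fold to 1.08-fold for Gad1.

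Among the class markers, Pvalb (ENSMUSG00000005716), the calcium buffer of fast-spiking cells, varied most. It had 46.5, 162 and 49.1 CPM in collagen domain males and 60.9, 126 and 62.5 CPM in collagen domain females, against 66.0, 54.3 and 221 CPM in PBS males and 69.1, 135 and 100.4 CPM in PBS females. A high library stood in each labelled group, so the groups overlapped widely. The means were 84.5 ± 47.9 CPM with the collagen domain and 108 ± 62.8 CPM with PBS (SD, n = 6 each), a log2 fold change of −0.35 with a 95% interval of −1.28 to 0.59. Leaving out 1 library moved this value in either direction: it was 0.06 without PBS male 3 and −0.70 without collagen domain male 2.

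Sst (ENSMUSG00000004366), the somatostatin precursor, had 96.8, 112 and 130.4 CPM as the lowest, median and highest collagen domain values, against 85.7, 115 and 131 CPM with PBS. Vip (ENSMUSG00000019772), vasoactive intestinal peptide, had 22.1, 35.1 and 44.0 CPM with the collagen domain, against 26.6, 34.6 and 51.9 CPM with PBS. Neither treatment stood above the other for these peptides, with log2 fold changes of −0.01 (95% interval −0.22 to 0.21) for Sst and −0.08 (−0.51 to 0.35) for Vip. Npy (ENSMUSG00000029819), the neuropeptide Y of neurogliaform and long-range Sst cells, had 28.5, 40.6 and 44.4 CPM with the collagen domain, against 27.96, 39.8 and 45.9 CPM with PBS. Cck (ENSMUSG00000032532), of basket cells and many pyramidal cells, had 106, 166 and 179 CPM with the collagen domain, against 128, 156 and 209 CPM with PBS. Their log2 fold changes were −0.02 (−0.32 to 0.28) and −0.06 (−0.39 to 0.27).

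Calb2 (ENSMUSG00000003657), the calcium buffer calretinin, had 76.2, 96.96 and 126 CPM as the lowest, median and highest with the collagen domain, against 82.4, 101.8 and 116 CPM with PBS, and a log2 fold change of −0.01 (−0.27 to 0.26). Reln (ENSMUSG00000042453), the secreted protein that guides neuron layering and acts on the receptors Vldlr and Lrp8, had 56.6, 65.0 and 87.2 CPM with the collagen domain, against 67.4, 72.3 and 94.7 CPM with PBS. Lhx6 (ENSMUSG00000026890), a transcription factor of cells from the medial ganglionic eminence, had 12.3, 14.2 and 17.0 CPM with the collagen domain, against 10.4, 13.1 and 14.9 CPM with PBS. These last 2 had the smallest unadjusted p of the 10 in edgeR's test, 0.141 for Reln at a log2 fold change of −0.17 and 0.173 for Lhx6 at 0.14, each with an adjusted p of 1. The kit kept no strand: exons of Reln share 246 bases, 1.04% of their length, with a gene on the opposite strand, and exons of Lhx6 share 104 bases, 2.16%, with a gene on the same strand.

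**Figure D1:**
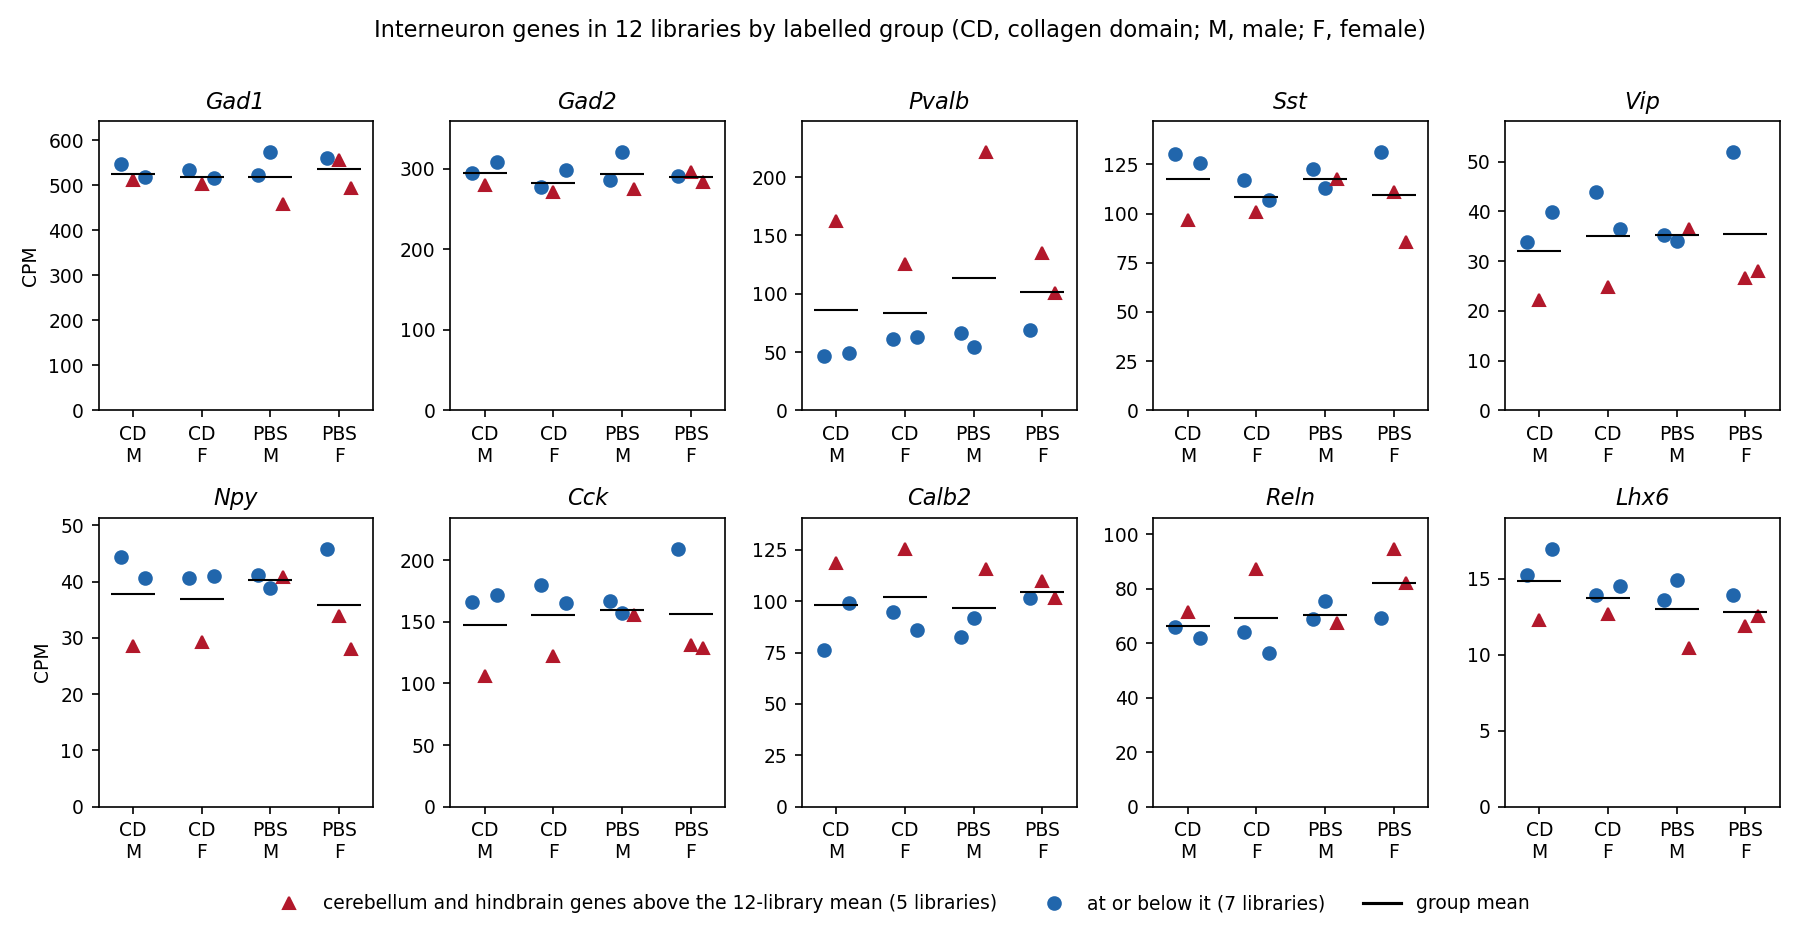
Level of each interneuron gene in CPM (linear axis from 0) in collagen domain males and females and PBS males and females, 1 point per library, with a line at each group mean of 3. Triangles are the 5 libraries whose cerebellum and hindbrain genes were above the 12-library mean, and circles the other 7; Pvalb is at 100.4 CPM or more in every triangle and at 69.1 CPM or less in every circle.

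The median log2 fold change of the 10 was −0.02 and 1 of 10, Lhx6, was above 0, beside a median of 0.00 and 50.1% above 0 over all genes tested. Within females the 10 ran from −0.29 (Pvalb) to 0.10 (Lhx6), and within males from −0.40 (Pvalb) to 0.19 (Lhx6), all with an edgeR adjusted p of 1. The difference between the sexes in the treatment effect ran from −0.13 (Npy) to 0.16 (Reln), again with an adjusted p of 1 in edgeR. Male against female libraries differed by −0.14 (Reln) to 0.11 (Sst), with an adjusted p of 1. These 4 comparisons called 0 genes each, or 0%, and had 280, 325, 263 and 377 genes at an unadjusted p under 0.05, with no member among them. Male against female as labelled thus did not call Xist or Ddx3y, which went against the sex label in 4 libraries.

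**Figure D2:**
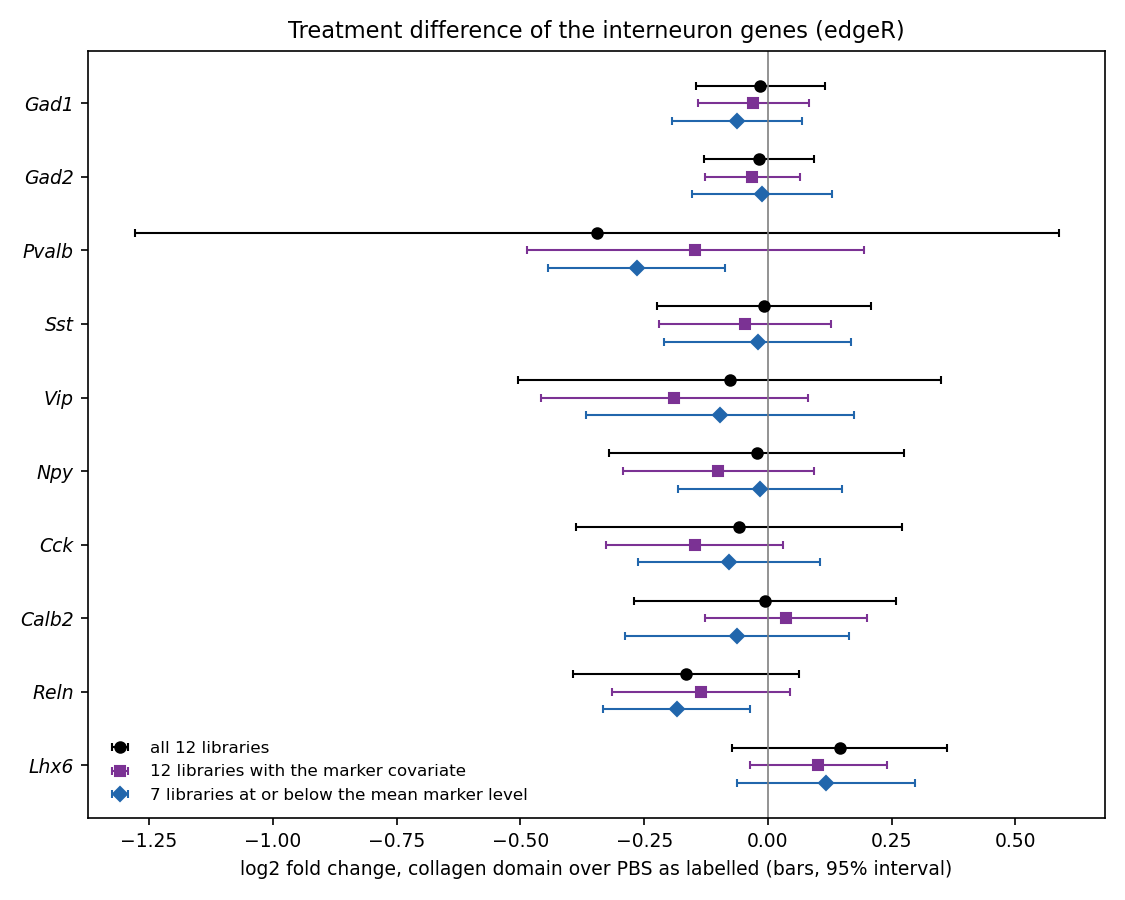
Log2 fold change of each interneuron gene, collagen domain over PBS as labelled, with its 95% interval from edgeR: circles use all 12 libraries, squares add the cerebellum and hindbrain level as a covariate, and diamonds use the 7 libraries at or below its mean. The interval of Pvalb spans −1.28 to 0.59 over 12 libraries and −0.44 to −0.09 over the 7, and all adjusted p are above the threshold. The 7 include collagen domain female 1, collagen domain female 3 and PBS male 1, which went against the treatment label.

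Leaving out the libraries in doubt did not bring any of the 10 past the threshold. Without the 4 libraries that went against the treatment label, the log2 fold change was −0.22 for Pvalb, −0.33 for Vip and 0.01 for Reln, with edgeR adjusted p of 0.926, 0.818 and 0.986. Without the 5 that went against either label it was 0.00 for Pvalb, −0.47 for Vip and 0.05 for Reln, with adjusted p of 0.998, 0.664 and 0.876 in edgeR. With the cerebellum and hindbrain level as a covariate the SE of Pvalb was 0.155, against 0.425 without it, and its log2 fold change was −0.15. In the 7 libraries below the marker mean (4 labelled collagen domain and 3 labelled PBS) Pvalb had a log2 fold change of −0.26 with an unadjusted p of 0.00889, and Reln −0.18 with an unadjusted p of 0.0207; the edgeR adjusted p was 0.975 for both, and 536 of the 19145 genes had an unadjusted p under 0.05 there. Pvalb values in those 7 were 46.5, 49.1, 60.9 and 62.5 CPM with the collagen domain and 54.3, 66.0 and 69.1 CPM with PBS, which overlap. The 60.9, 62.5 and 66.0 CPM belong to collagen domain female 1, collagen domain female 3 and PBS male 1, which went against the treatment label. The 69.1 CPM belongs to PBS female 1, a library that stood apart in another way described below.

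Genes of the same pathways were read from lists of related function. Of 6 genes for packaging, uptake and breakdown of GABA, of 12 of the medial and 14 of the caudal ganglionic eminence lineage, of 7 interneuron transcription factors and receptors, of 12 of fast-spiking cells and perineuronal nets and of 14 receptors and partners of the members, edgeR called 0 for treatment. Slc32a1, the vesicular GABA transporter, averaged 82.4 ± 10.03 CPM with the collagen domain and 78.8 ± 6.57 CPM with PBS (SD, n = 6 each). Elfn1, a synaptic protein of Sst cells, averaged 23.2 ± 2.17 CPM with the collagen domain and 20.9 ± 1.83 CPM with PBS (SD, n = 6 each). The smallest unadjusted p in these lists were 0.0223 for Nr2f2, a transcription factor of the caudal lineage, at a log2 fold change of −0.24, and 0.0244 for Nkx2-1, which specifies the medial lineage, at 0.62. Nr2f2 averaged 21.0 ± 1.51 CPM with the collagen domain and 24.8 ± 3.54 CPM with PBS, and Nkx2-1 averaged 1.84 ± 0.506 CPM with the collagen domain and 1.20 ± 0.403 CPM with PBS (SD, n = 6 each). Both had an edgeR adjusted p of 1. The median log2 fold changes of the 6 lists ran from −0.03, for the fast-spiking list, to 0.06, for the interneuron transcription factors.

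The 10 genes varied unequally between libraries. The SD of log2(CPM + 0.5) over 12 libraries was 0.737 for Pvalb, larger than that of 98.9% of all genes tested, with the highest library 4.75 times the lowest. For Vip it was 0.348, larger than 92.6% of genes, for Cck 0.274 and for Npy 0.250, larger than 85.7% and 81.8%. Calb2, Reln, Sst and Lhx6 lay between 59.7% and 74.5%. Gad1 and Gad2 were at the other end, at 0.0895 and 0.0708, larger than only 15.0% and 7.39% of genes, and their highest libraries were 1.25 and 1.18 times the lowest. The 2 enzymes that all GABA neurons share thus varied less than most genes, and the other 8 members more.

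Part of this spread went with the cerebellum and hindbrain genes. The ranges of the 5 libraries above their mean and of the other 7 did not overlap for 4 of the 10 members, 2 higher and 2 lower, beside 7.85% of all genes tested, 5.06% higher and 2.79% lower. The split is one of libraries by measured marker genes, not a group of the study, so these are descriptions with no test. Pvalb was 100.4 to 221 CPM in the 5 and 46.5 to 69.1 CPM in the 7, a ratio of medians of 2.21. Within the 5, the Pvalb order was not that of the marker genes: the library with the highest marker level, collagen domain male 2, had 162 CPM, and the highest Pvalb, 221 CPM, was in PBS male 3.

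Calb2 was also higher, though barely. In the 5 it had 119, 126, 116, 110.0 and 101.8 CPM in the libraries labelled collagen domain male 2, collagen domain female 2, PBS male 3, PBS female 2 and PBS female 3, and in the 7 it ran from 76.2 to 101.7 CPM, with PBS female 1 at the top. The ratio of medians was 1.26. Reln, whose cerebellar source is granule cells, had a ratio of 1.25 but overlapping ranges, 67.4 to 94.7 CPM in the 5 and 56.6 to 75.3 CPM in the 7.

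Cck and Lhx6 were lower in the 5. Cck had 106, 122, 155.7, 131 and 128 CPM in these libraries, in the order just given, and 156.7 to 209 CPM in the other 7, so that PBS male 3 in the 5 and PBS male 2 in the 7 nearly met. The ratio of medians was 0.770. Lhx6 had 10.4 to 12.7 CPM in the 5 and 13.6 to 17.0 CPM in the 7, a ratio of 0.845. Sst, Vip and Npy had ratios of 0.820, 0.732 and 0.715 with overlapping ranges, and without PBS male 3 the ranges of Vip and Npy no longer overlapped. Gad1 and Gad2 had ratios of 0.942 and 0.950 and overlapped, and Gad1 did not overlap without the library labelled PBS female 2.

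**Figure D3:**
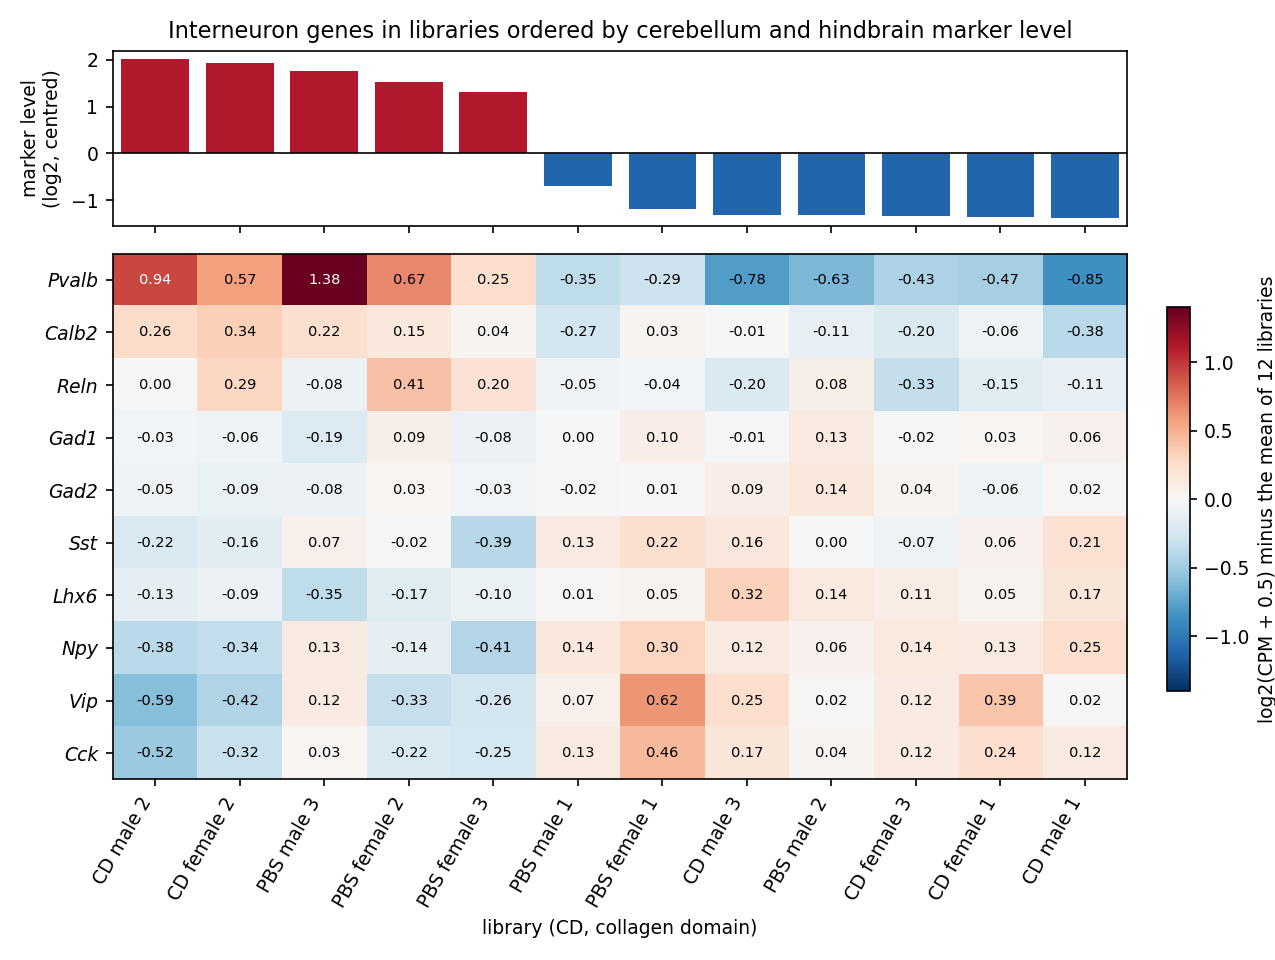
Upper panel, mean log2 CPM of the cerebellum and hindbrain genes in each library, centred on the mean of 12, from highest to lowest; lower panel, log2(CPM + 0.5) of each interneuron gene minus its 12-library mean, red above and blue below. The 5 libraries at the left, at 1.32 to 2.03 in the upper panel, are red for Pvalb and mostly blue for Lhx6, Npy, Vip and Cck, while the rows of Gad1 and Gad2 are pale throughout.

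Leaving out 1 library cannot make ranges overlap that did not, so the same 4 members stayed apart, joined by the genes just named. The cerebellum genes alone picked the same 5 libraries, so the same 4 members were bound to stand apart there. With the hindbrain genes alone the library labelled PBS male 1 joined these 5 libraries, and then Lhx6 alone of the 10 stayed apart. That library had 66.0 CPM of Pvalb, inside the range of the other low libraries.

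Ratios of reads between members within a library do not depend on library scaling. Pvalb over Sst was 1.17 to 1.88 in the 5 libraries and 0.357 to 0.584 in the 7, in reads not scaled for exon length. Pvalb over Gad1 was 0.203 to 0.483 in the 5 and 0.0850 to 0.126 in the 7, and Calb2 over Vip was 3.19 to 5.38 in the 5 and 1.96 to 2.69 in the 7. The ratio of Gad1 to Gad2 stayed between 1.67 and 1.88 in the 5 and between 1.68 and 1.93 in the 7. Npy over Sst was 0.291 to 0.346 in the 5 and 0.323 to 0.383 in the 7, which overlap. Lhx6 over Gad1 was 0.0214 to 0.0255 in the 5 and 0.0249 to 0.0327 in the 7, which also overlap. Each of these ranges held libraries of both treatments: Pvalb over Sst was 0.357 to 1.68 in collagen domain libraries and 0.481 to 1.88 in PBS libraries.

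Related genes showed which neighbours of the members followed the same split, by which 5.06% of all genes tested were higher and 2.79% lower. Of 7 pan-interneuron transcription factors and receptors, 5 were lower in all 5 libraries than in all 7: Dlx1, Dlx2, Dlx5, Dlx6 and the antisense transcript Dlx6os1, which overlaps the Dlx6 region and cannot be told apart from it there without strand. Dlx1, a homeobox factor of forebrain inhibitory neurons, had 24.7 to 30.3 CPM in the 5 and 40.7 to 45.1 CPM in the 7. Of 12 fast-spiking and perineuronal net genes, 6 were higher: Kcnc1, Syt2, Cplx1, Hapln4, Scn1a and Kcna1. Syt2, the fast calcium sensor of Pvalb terminals and also of many hindbrain synapses, had 136 to 213 CPM in the 5 and 40.0 to 76.7 CPM in the 7. Maf, Nos1 and Calb1 were higher as well, and Cort and Sp8 lower, among the 26 genes listed for the medial and caudal lineages. Which cells or regions the transcripts of these genes came from was not tested.

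None of the 6 GABA packaging and uptake genes and none of the 14 receptor and partner genes stood apart. Over all genes tested the share was 7.85%, at which lists this short can hold none. Slc32a1 had 74.3 to 94.5 CPM in the 5 and 69.8 to 82.3 CPM in the 7. The median log2 ratio of medians was −0.44 for the pan-interneuron list, 0.33 for the fast-spiking list, 0.24 for the GABA packaging list and −0.16 for the 10 members, beside −0.00 over all genes tested.

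Some lists of markers of other tissue moved with the same split and others did not, beside 5.06% of all genes tested higher and 2.79% lower. Of 11 striatal genes 6 were lower in all 5 libraries, with a summed level of 651 to 822 CPM in the 5 and 858 to 1046 CPM in the 7. Of 10 genes of cortical excitatory neurons 4 were lower, with sums of 2512 to 3234 CPM in the 5 and 3086 to 3676 CPM in the 7. Of 7 astrocyte genes 6 were higher, with sums of 2161 to 2649 CPM in the 5 and 1694 to 1903 CPM in the 7, and of 7 oligodendrocyte genes 4 were higher. None of 8 pan-neuronal, 5 hippocampal, 8 choroid plexus and 7 microglial genes stood apart. Ranges overlapped for 13 of 14 hypothalamic and 7 of 8 thalamic genes. The part of this tissue content in the members' levels was not tested.

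**Figure D4:**
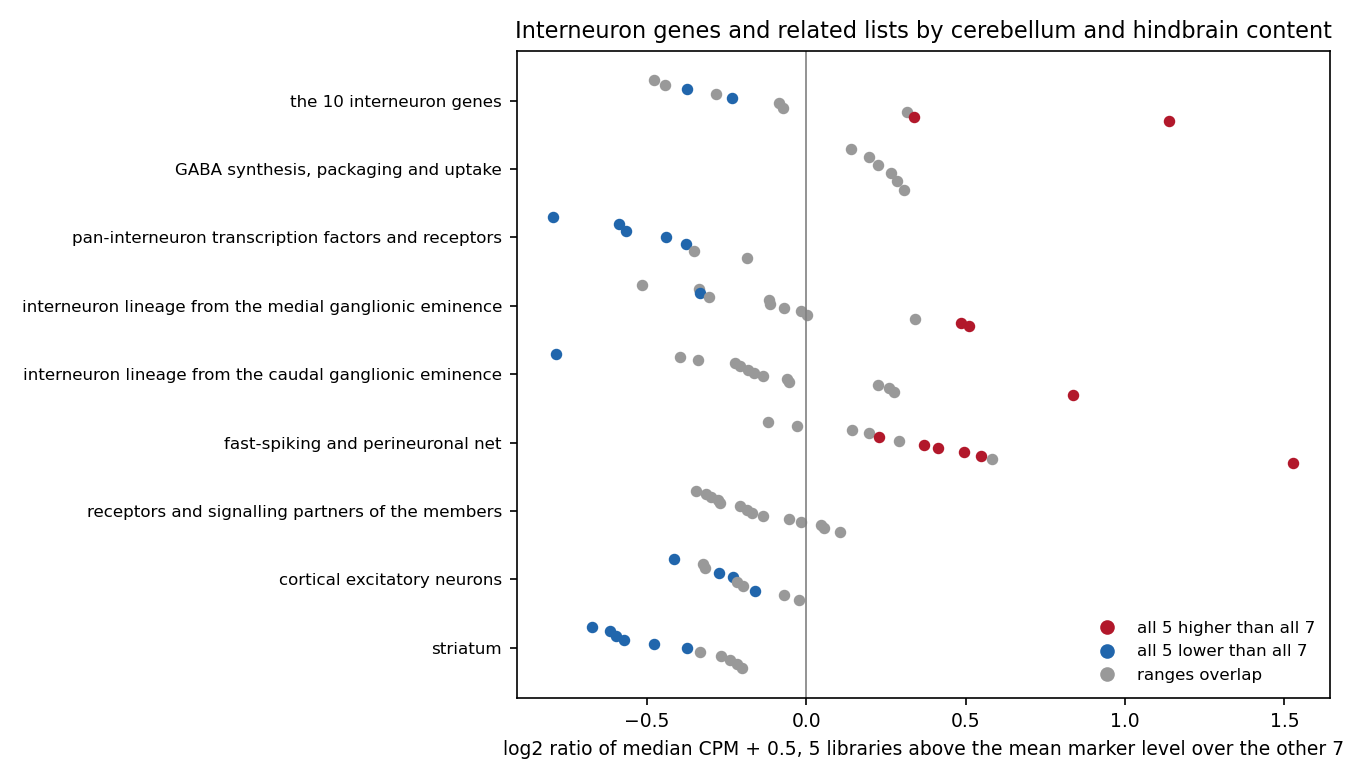
Log2 ratio of the median level (CPM + 0.5) in the 5 libraries above the mean cerebellum and hindbrain level over the other 7, 1 point per gene, by list. Red points are genes higher in all 5 than in all 7, blue points lower and grey points overlapping; 5 of the 7 pan-interneuron genes are blue and 6 of the 12 fast-spiking genes are red.

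PBS male 3 and PBS female 1 stood apart in another way. They had the largest shares of mitochondrially encoded reads, 9.67% in PBS male 3, against 7.57 to 8.53% in the other 4 libraries above the marker mean, and 9.86% in PBS female 1, against 7.37 to 8.83% in the other 6 below it. Pvalb, Sst, Vip, Npy and Cck all had their highest value of the 5 in PBS male 3. Pvalb, Sst, Vip, Npy, Cck and Calb2 all had their highest value of the 7 in PBS female 1, where Vip was 51.9 CPM and Cck 209 CPM. Gad1, Gad2, Reln and Lhx6 were not highest there.

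Genes with short exons were high in both libraries. In PBS male 3 the median log2 difference from the other libraries of its kind was 0.45 over 998 genes under 1 kb and −0.20 over 2665 genes above 8 kb. In PBS female 1 these medians were 0.28 and −0.10, while the other 10 libraries lay between −0.15 and 0.10 under 1 kb and between −0.05 and 0.06 above 8 kb. Npy and Sst have exons of 566 and 721 bases, Pvalb 1041, Cck 1305, Calb2 1743 and Vip 3402, while Lhx6, Gad2, Gad1 and Reln have 4805 to 23738 bases. Vip lies among genes of 2 to 4 kb, whose medians were 0.04 in PBS female 1 and 0.02 in PBS male 3. The other members highest in these libraries had exons under 2 kb. The part of transcript length and mitochondrial share in the members' levels was not tested. Without both libraries, Sst, Vip, Npy, Cck and Calb2 had treatment differences of 0.06 to 0.12 on the log2 scale, all above 0 where they were below 0 over 12 libraries, and Pvalb −0.01, each with an edgeR adjusted p of 1.

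**Figure D5:**
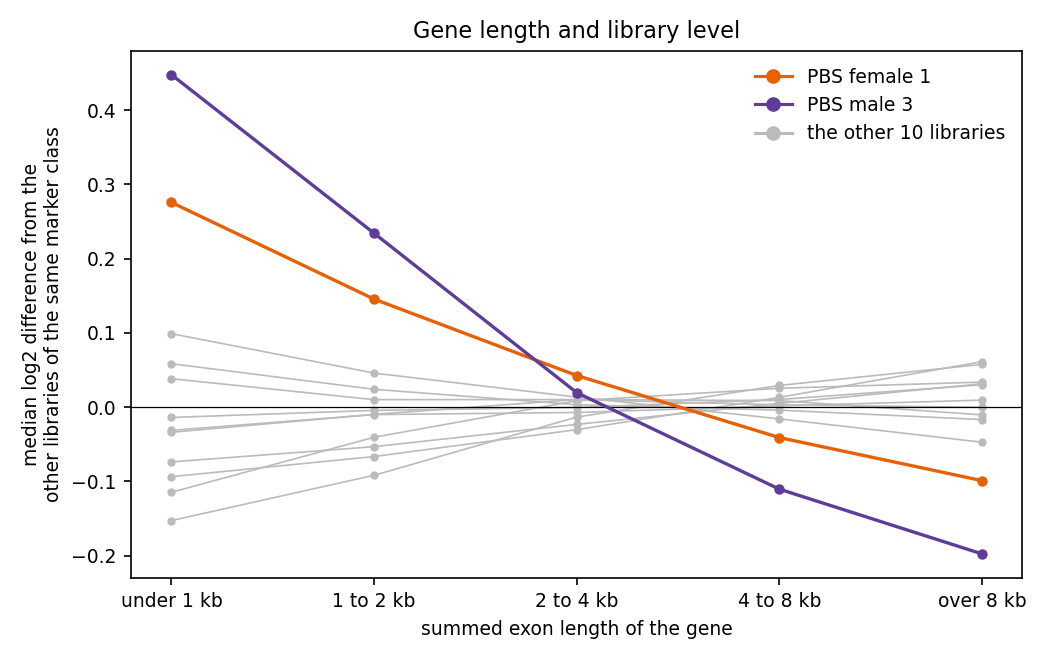
Median over genes of the log2 difference between a library and the other libraries of the same cerebellum and hindbrain class, by summed exon length of the gene, 1 line per library. PBS male 3 goes from 0.45 under 1 kb to −0.20 above 8 kb and PBS female 1 from 0.28 to −0.10, while the other 10 libraries, in grey, stay close to 0.

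Over the 12 libraries, the genes whose centred log2 level lay closest to that of each member were found among 15482 genes with a mean of at least 1 CPM. Gad1 was closest to Ext1, at a mean absolute difference of 0.0241, and Gad2 to Thsd7a, at 0.0324. Cck was closest to Vxn, at 0.0385, Lhx6 to Celf3 and Ptpn5, at 0.0436 and 0.0524, and Vip to Tusc3, at 0.0594. Calb2 lay closest to G0s2, at 0.0611, Npy to Ctxn1, at 0.0663, Sst to Sh3bgrl3 and Rab3b, at 0.0704 and 0.0705, and Reln to Adra2a, at 0.0729. Pvalb had the most distant nearest gene, Cep72, at 0.175. No member was among the 2 genes closest to another member.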

How the data were processed

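Poly(A) RNA of 12 brain libraries was sequenced in 75-base pairs on a NextSeq 500 from TruSeq version 2 libraries, which keep no strand, per the labels' protocols. The authors deposited 1 table of raw counts, with a row for each Ensembl ID. Per the submitters' processing notes, the GRCm39 build, STAR and DESeq2 were used in roles not stated; the counting tool and annotation are not given in the sources used here. Symbols came from GENCODE M21 names (42462 of 43629 IDs matched, 1167 did not), and exon lengths and overlaps from that GRCm38 annotation, so no gene coordinates are given. RefSeq supplied the GRCm38.p6 promoter windows.

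The tests used edgeR 4.0.16 (R 4.3.3) on the deposited counts: filterByExpr on 4 groups, TMM scaling and robust quasi-likelihood F-tests, two-sided, with Benjamini-Hochberg adjustment over all genes at a threshold of 0.05. An additive fit gave the differences between treatments and between sexes over all 12 libraries; a fit of 4 groups gave the others. The common biological coefficient of variation was 0.178. The code was tested on simulated counts. DESeq2 1.42.0, limma-voom (limma 3.58.1), other scaling, filters, thresholds, covariates and subsets of libraries were tried. Libraries of 1 group differed beyond sampling noise, with chi-square values per degree of freedom of 11.1 to 94.6 over 12 pairs. The members and lists were chosen with earlier results of these data known. Named genes were all 10 members, up to 4 genes of smallest p in each related list, and, of the 2 genes closest to each member, at least the closest, with 1 item not reported here; genes named for the marker split were those whose ranges did not overlap, and examples among them were chosen after their values were seen.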

Additional observations from a re-analysis of the deposited data

How the results depend on the processing

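Without the libraries against the treatment label or against either label, collagen domain females are 1 library, female 2, and in the 7 low-marker libraries PBS females are 1 library, female 1; the within-female and interaction values there assume that a lone library varies like the other groups. No member passed the threshold under any alternative, but the small treatment differences often changed sign. In both sexes, these were above 0 on the log2 scale, against a value below 0 in all 12 libraries: Calb2 at 0.0367 with the marker covariate, Calb2 at 0.0581 and Reln at 0.00775 without the libraries against the treatment label, and Pvalb at 0.00364, Calb2 at 0.0711 and Reln at 0.0494 without those against either label. In the 5 libraries above the marker mean, a choice made after seeing the data, they were Gad1 at 0.0149, Calb2 at 0.138 and Reln at 0.00441; the fit of 4 groups was not run there, since it leaves 1 residual degree of freedom. Without PBS male 3 and PBS female 1, also chosen after seeing the data, Sst was 0.0685, Vip 0.121, Npy 0.0891, Cck 0.0648 and Calb2 0.0604 in both sexes, and Pvalb 0.52 within males. Within females Pvalb was 0.0451 with the covariate and 0.56 without either set of libraries in doubt, where Lhx6 was −0.0709, both resting on 1 collagen domain library. For the interaction, with 1 library in a group each time, Npy was 0.27, 0.22 and 0.26 without the libraries against the treatment label, without those against either label and in the 7 low-marker libraries, and Reln was −0.30 and −0.25 in the first 2. Male against female, Reln was 0.0696 in the 7.

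Leaving out 1 library at a time gave −0.0552 to 0.0157 for Gad1, −0.0407 to 0.0093 for Gad2, −0.704 to 0.0609 for Pvalb, −0.0732 to 0.0617 for Sst, −0.171 to 0.0835 for Vip, −0.0973 to 0.0663 for Npy, −0.12 to 0.0549 for Cck and −0.0803 to 0.0594 for Calb2 in both sexes, −1.25 to 0.51 for Pvalb within males and −0.352 to 0.0346 for Npy in the interaction. The causes were not tested.

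Against 0 genes called in each comparison, the libraries against the treatment label and those against either label, when left out, gave 2 and 2 calls in both sexes, 1 and 1 within females (against that 1 collagen domain library), 1 and 1 within males, and 1 and 7 male against female. DESeq2 gave 3 within males, 1 for the interaction and 8 male against female. Male against female also had 4 calls in the 7 low-marker libraries, 1 in the 5, 4 without PBS male 3 and PBS female 1, and 0 to 5 without each library in turn, the 5 without PBS male 3; within males that range was 0 to 1, the 1 without the library labelled collagen domain female 3. Members apart by marker level were 4 to 6 with 1 library left out, which could not lower the count, and 1 with hindbrain genes alone. Same-numbered libraries did not deviate together throughout (correlations of −0.35 to 0.51 over 6 pairs, with 0.51 and 0.46 for females 1 and 2). Libraries of the pairs below 0 also differed in marker class, so this cannot decide whether the numbers pair them. The replicate block gave 0 calls in all 5 edgeR comparisons. In both sexes it had 609 genes at an unadjusted p under 0.05 in edgeR, 1 of them a member. Without it there were 354, none of them a member. Each member had 399 reads or more in every library; the effect of depth was not tested.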

Other observations

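Npy, Sst and Vip are also made by hypothalamic neurons, and genes of the hypothalamus varied between libraries. The summed level of 14 hypothalamic genes, which include Avp, Oxt, Pomc and Agrp, was 59.6 to 150.1 CPM in collagen domain libraries and 43.2 to 80.2 CPM in PBS libraries. All 14 had a log2 fold change above 0 for treatment in both sexes, with a median of 0.48. Over all genes tested 50.1% were above 0, and edgeR called 0 of the 14. Agrp, Nr5a1 and Ghrh were at 0.606 CPM or less in every library. Treatment here is as labelled, and 4 libraries went against that label. Of the other lists, 8 of 8 choroid plexus genes (median 0.35) and 11 of 11 striatal genes (median 0.12) were also above 0, with 0 called. Npy, Sst and Vip had log2 fold changes of −0.02, −0.01 and −0.08 in the same fit. The part of hypothalamic content in their levels was not tested.

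The 5 olfactory bulb genes, from a region rich in Calb2 neurons, had summed levels of 50.2 to 62.1 CPM in the 5 libraries above the cerebellum and hindbrain mean and 79.2 to 98.0 CPM in the other 7, while Calb2 itself was higher in the 5. Of these genes Doc2g and Cdhr1 were lower in all 5 than in all 7, Barhl2 was higher, at 2.49 to 4.64 CPM in the 5 and 0.815 to 1.399 CPM in the 7, and 2 overlapped.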
